A study of Triticum aestivum and Triticum turgidum subsp. durum with 27 samples.

Results

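The plant cell wall and the cytoskeleton set how far a young organ can grow. Expansins loosen the wall, and xyloglucan endotransglucosylases cut and rejoin the xyloglucan chains that tie cellulose microfibrils together. Cellulose synthases, steered by cortical microtubules made of tubulin, lay the microfibrils down, and pectin enzymes, arabinogalactan proteins and extensins modify or reinforce the matrix around them. Growth slows early when water is short, and wall genes of this kind are known to respond to drought in leaves and roots of several plants. Here 48 probe sets for such genes, of 61179 wheat probe sets on the array, were followed in the glume, the green bract that encloses the wheat floret.

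Glumes came from 3 genotypes. CS_5AL-10 is a deletion line of the bread wheat CS (Chinese Spring) that has lost the end of the 5A long arm. CS is hexaploid, with the A, B and D genomes. Creso is a tetraploid durum wheat with the A and B genomes. In each genotype, plants were watered throughout (CTRL), or watering was stopped after flowering until moderate (MS) or severe stress (SS) was reached and then held. Each of the 9 groups had 3 biological replicates, 1 array each, so that 27 Affymetrix Wheat Genome Arrays were hybridised. According to the labels the glumes were taken 10 days after anthesis in CS_5AL-10 and CS and 7 days after anthesis in Creso, and the study's methods also give a later day for the bread wheats. Genotype and age of the glume therefore cannot be told apart. The deletion is represented by a single line, and 1 label field of CS_5AL-10 names CS, so these arrays were grouped by their titles.

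The 48 probe sets are those whose best Arabidopsis match, in the study's table of drought responsive probe sets, is described by a word for expansins, xyloglucan, pectin, cellulose, polygalacturonase, arabinogalactan, extensin, xylosidase, laccase, tubulin, kinesin or actin. The first 1420 probe sets of that table were used here, and 1067 of them carry an Arabidopsis description. The table lists probe sets that the study had called for drought within a genotype on these arrays. Their drought differences are therefore given below as a description, with no test, and only the differences between genotypes, averaged over the treatments, were tested. The probe sets fall into 42 sequence clusters and 30 Arabidopsis genes, so several of them report the same or closely related transcripts. By the type letter in their names 9 (x), 6 (s) and 1 (a) may also bind transcripts of related genes, while 32 carry no such letter. Names such as "EXP1 match" stand for the best Arabidopsis match of the wheat sequence. A name in the list does not always mean a wall protein. The word pectin also caught amylopectin in the description of a starch synthase I (Ta.1137.1.S1_at), and extensin caught 3 matches to a carbonic anhydrase family protein.

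Each array gives an intensity per probe set. Differences are on the scale of log2(intensity + 16) after centring each array, so that a difference of 1 is close to 2-fold except at low intensities. Of the 48 probe sets, 47 were above the array median on all 3 arrays of at least 1 group and were tested, among 34089 in all. The exception, an XTR3 match (Ta.28766.1.S1_at), read 1.18 to 138 on all arrays. The tested probe sets were mostly well expressed, 35 lying above the median level of all those tested. As a check on the tissue, 25 probe sets for chlorophyll binding and light-harvesting proteins averaged 9.68 to 11.9 (log2) over the arrays, against an array median of 6.57. Their mean was 11.07 to 11.46 at SS in CS_5AL-10 against 9.68 to 10.13 at CTRL, 11.37 to 11.69 at SS in CS against 9.73 to 10.52 at CTRL, and 11.65 to 11.9 at SS in Creso against 10.77 to 11.58 at CTRL, so that the SS arrays lay above the CTRL arrays in each genotype. These probe sets and 3 for pollen and anther proteins come from the same drought table as the 48. The mean over 20 probe sets for endosperm storage proteins, which mark grain, differed between arrays. It was 6.99 to 11.84 in CS_5AL-10 and 5.96 to 12.11 in CS. In Creso it was 5.53 to 6.76 on 8 arrays and 9.83 on MS replicate 1. In CS it was 11.63 to 12.11 at CTRL, above the MS arrays (6.07 to 11.52) and the SS arrays (5.96 to 10.85). In CS_5AL-10 the treatments overlapped, at 9.21 to 11.39 at CTRL, 7.47 to 11.06 at MS and 6.99 to 11.84 at SS. Grain signal thus moved with the treatment in CS and varied between replicates in both bread wheats. Green tissue signal was higher at SS than at CTRL in each genotype, while in Creso the MS arrays (11.57 to 11.75) overlapped the CTRL arrays. Its movement with treatment was partly set by drawing these probe sets from the drought table, and is not an independent check. The part of both signals in the drought differences below was not tested. In whole glumes a lower signal can come from fewer cells of a type or from less RNA per cell, and these cannot be told apart.

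In Creso at SS the 3 expansins, the 4 TUB6 matches, for beta-tubulin, and the pectinesterase match of the list were lower. The XTH13 matches, for a xyloglucan endotransglucosylase, were higher. By a descriptive rule, a difference of at least 2-fold with replicates that do not overlap once arrays are centred, 14 of the 47 were higher and 19 lower at SS than at CTRL in Creso, against 5.36% and 3.46% of all tested probe sets. Since the list was drawn from drought calls on these arrays, nothing is read from that excess. The median difference of the 47 was -0.64, and that of all tested probe sets was 0.13. The mean of the 3 pollen and anther probe sets moved with these decreases in Creso, at 8.95 to 9.52 (log2) at SS against 10.38 to 10.97 at CTRL, while it was 9.67 to 10.53 at SS in CS_5AL-10 against 9.8 to 9.94 at CTRL and 9.45 to 10.37 at SS in CS against 9.93 to 10.18 at CTRL. These 3 were also drawn from the drought table, and the part of their mean in the differences was not tested. At MS in Creso 5 were higher and 8 lower (2.14% and 1.57% of all), and between SS and MS 11 were higher and 18 lower (2.4% and 2.51% of all).

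In the bread wheats fewer of the probe sets were lower. At SS over CTRL 12 were higher and 5 lower in CS_5AL-10 (3.57% and 4.48% of all), and 8 were higher and 10 lower in CS (4.44% and 4.22% of all). At MS over CTRL 6 were higher and 2 lower in CS_5AL-10 (1.93% and 3.49% of all), and 5 were higher and 1 lower in CS (2.6% and 1.63% of all). Between SS and MS 2 probe sets were apart in CS_5AL-10 and 3 in CS (2.21% and 1.99% of all, either direction). Single arrays moved these smaller counts. At MS over CTRL 13 met the rule without CS_5AL-10 MS replicate 1, and 10 without CS CTRL replicate 1. At SS over MS 4 met it in CS_5AL-10 without MS replicate 1 or 3 and 5 without SS replicate 3, and in CS 7 met it without MS replicate 2, 9 without SS replicate 2 and 5 without SS replicate 3. Over the 3 genotypes, 7 probe sets were higher at SS in each and 3 were lower in each. With these 10, 16 met the rule in Creso and a bread wheat in the same direction. Another 17 met the rule at SS in Creso alone, 13 of them lower, while 7 met it in a bread wheat and not in Creso. A further 7 met it in no genotype. The shares of all tested probe sets with these patterns were not computed. Since the list was drawn from drought calls on these arrays, nothing is read from these counts.

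**Figure D1:**
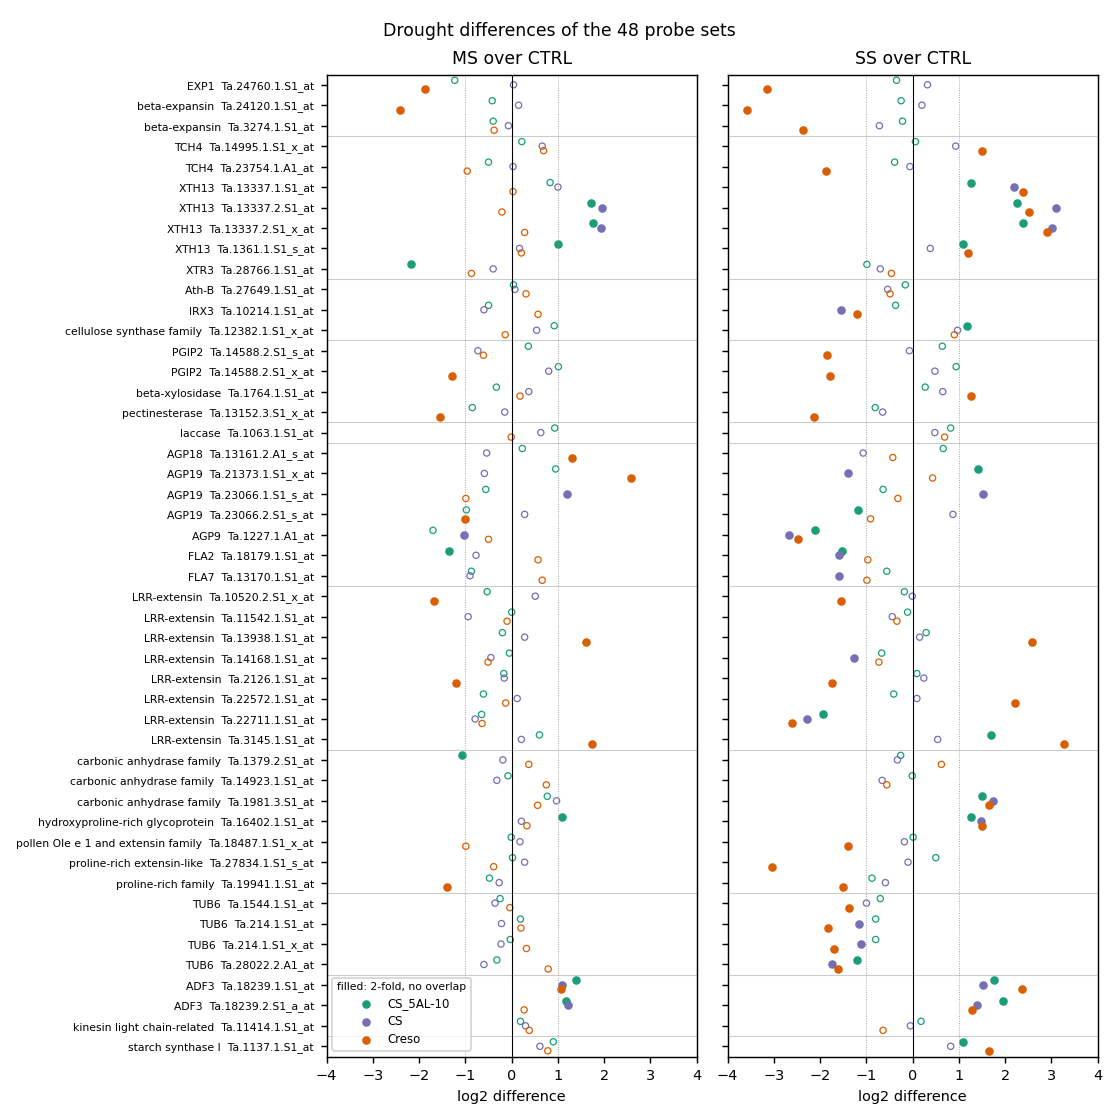
Differences between MS and CTRL (left) and between SS and CTRL (right), as log2 differences on the horizontal axis, for the 48 probe sets in rows grouped by role. Colours mark CS_5AL-10, CS and Creso, filled points differ at least 2-fold with replicates that do not overlap, and dotted lines mark 2-fold. At SS the 3 expansins and the 4 TUB6 matches lie left of the line in Creso, and the XTH13 matches lie right of it in every genotype except Ta.1361.1.S1_s_at in CS. The XTR3 match, which was not tested, is drawn too.

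Expansins loosen the wall without cutting its polymers, and the alpha and beta types are both abundant in grasses. The 3 probe sets here include the pair with the largest drought differences of the list that pointed down. The beta-expansin match Ta.24120.1.S1_at read 273, 344 and 554 in CS_5AL-10 CTRL glumes, 251, 444 and 204 at MS and 210, 472 and 257 at SS. In CS it read 234, 248 and 231 at CTRL, 215, 314 and 186 at MS and 340, 112 and 478 at SS. In Creso it read 6850, 5120 and 3460 at CTRL, 625, 821 and 1290 at MS and 353, 436 and 304 at SS. The Creso arrays thus stepped down at each level of stress without overlap, to values within the range of the bread wheats, which overlapped across all treatments. The differences from CTRL in Creso were -2.41 at MS and -3.59 at SS (12-fold), and those in CS_5AL-10 and CS were -0.42 to 0.2.

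The EXP1 match Ta.24760.1.S1_at, for an alpha-expansin, had a like pattern. It read 1260, 703 and 1960 at MS and 508, 422 and 478 at SS in Creso, against 5030, 6570 and 3080 at CTRL. In the bread wheats all 18 arrays lay between 18.5 and 575, with treatments that overlapped. Its differences in Creso were -1.87 at MS and -3.14 at SS, with -1.23 and -0.35 in CS_5AL-10 and 0.04 and 0.32 in CS. The MS difference in CS_5AL-10 rested on single arrays, being -0.4 without MS replicate 3 and -1.89 without MS replicate 1. The other beta-expansin match, Ta.3274.1.S1_at, was high in Creso at CTRL (9510, 5160 and 7770) and at MS (8700, 3250 and 5280), and read 1480, 1190 and 1140 at SS. Its difference was -0.38 at MS and -2.37 at SS, so that it was apart only at the severe level. In CS_5AL-10 and CS its SS differences were -0.22 and -0.72, the one in CS being -0.02 without SS replicate 2.

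The matches to XTH13, a xyloglucan endotransglucosylase, showed the opposite drought direction, while other probe sets of the family did not all do so. The 4 probe sets matching XTH13 belong to 2 clusters, and each was higher at SS in Creso by the rule. Ta.13337.1.S1_at, the brightest, read 2150, 1590 and 3440 at CTRL, 4650, 4170 and 3720 at MS and 6510, 5570 and 3850 at SS in CS_5AL-10. In CS it read 1990, 559 and 1340 at CTRL, 1690, 3500 and 1440 at MS and 9750, 2850 and 4880 at SS. In Creso it read 2200, 2930 and 3680 at CTRL, 2190, 3030 and 3290 at MS and 14800, 15300 and 11400 at SS. Thus the MS and CTRL arrays overlapped in Creso and the SS arrays stood above both, with a difference of 2.38 from CTRL. The SS differences in CS_5AL-10 and CS were 1.26 and 2.2.

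The neighbouring probe sets of the same cluster, Ta.13337.2.S1_at and Ta.13337.2.S1_x_at, were higher already at MS in both bread wheats. Ta.13337.2.S1_at read 710, 928 and 1070 at CTRL, 2900, 2930 and 3320 at MS and 5020, 5370 and 2500 at SS in CS_5AL-10. In CS it read 544, 222 and 577 at CTRL, 1310, 2650 and 878 at MS and 6410, 1970 and 3500 at SS. Its MS differences were 1.72 in CS_5AL-10 and 1.95 in CS, and its SS differences 2.25 and 3.1. In Creso the CTRL and MS arrays overlapped, with an MS difference of -0.21, and the SS difference was 2.51. The 4th match, Ta.1361.1.S1_s_at, differed by 1.09 in CS_5AL-10, 0.38 in CS and 1.19 in Creso at SS.

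The matches to TCH4, an Arabidopsis xyloglucan endotransglucosylase known for its induction by touch, went apart from each other in Creso. Ta.14995.1.S1_x_at read 2300, 2190 and 1630 at SS in Creso against 971, 598 and 788 at CTRL, a difference of 1.5. Ta.23754.1.A1_at read 44.1, 72.3 and 80.1 at SS in Creso against 415, 332 and 207 at CTRL, a difference of -1.88. In the bread wheats neither met the rule, with SS differences of -0.39 to 0.93. Ta.23754.1.A1_at did not pass the filter in CS_5AL-10, at 5.09 to 7.4 (log2) against an array median of 6.57, so a decrease there could hardly show. The XTR3 match was too dim to be tested. Its 6 CS_5AL-10 arrays at MS and CTRL did not overlap (36.6, 4.53 and 3.4 at MS against 137, 104 and 82.4 at CTRL).

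**Figure D2:**
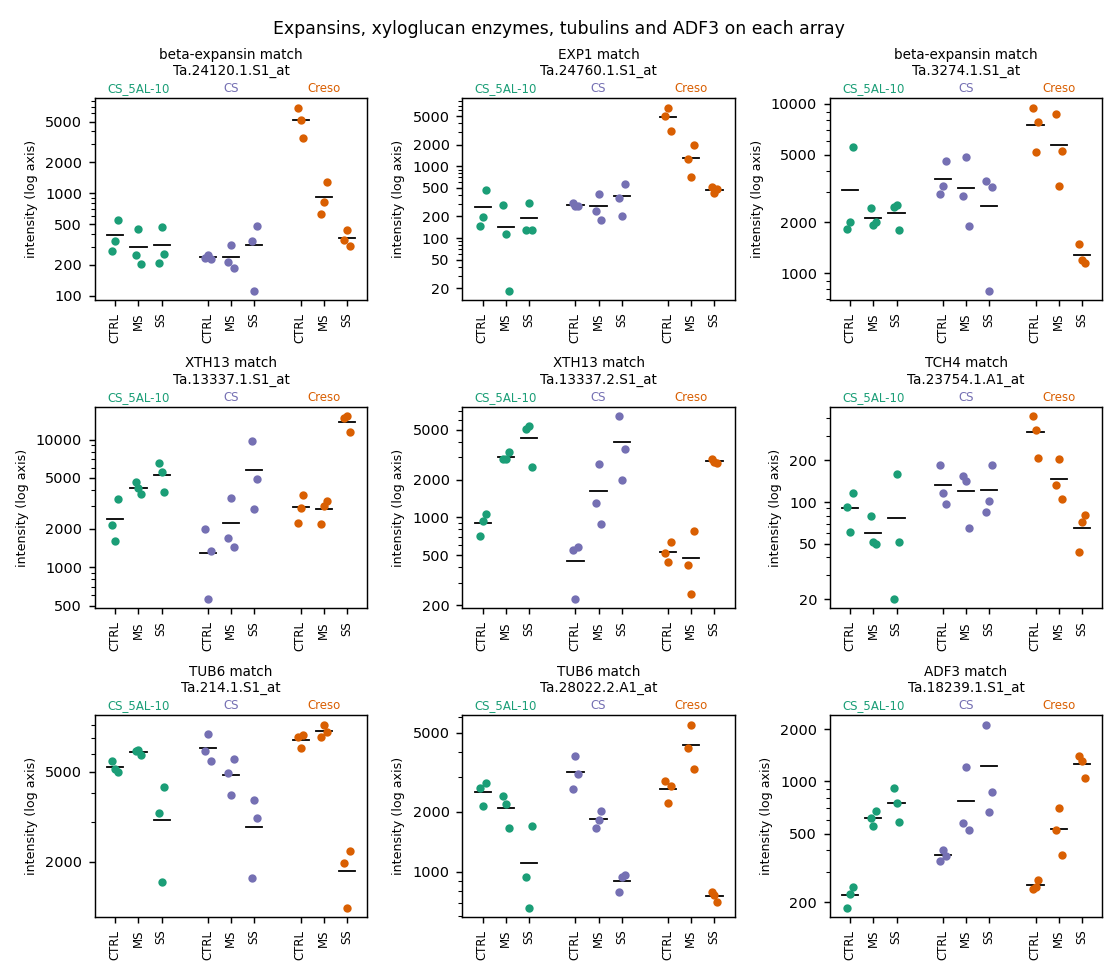
Intensity on each array (points, logarithmic vertical axis) and the mean of each group (bars) for 3 expansin, 2 XTH13, 1 TCH4, 2 TUB6 and 1 ADF3 matches, with CS_5AL-10, CS and Creso side by side under CTRL, MS and SS. In Creso the expansins are lower at SS than at CTRL without overlap, as are the TUB6 matches, and the XTH13 matches stand higher at SS than at CTRL in each genotype.

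The matches to the cellulose synthase family differed from one another. IRX3 in Arabidopsis makes cellulose of the secondary wall, and Ath-B that of the primary wall. The IRX3 match Ta.10214.1.S1_at read 530, 2570 and 1100 at SS in CS against 3020, 5100 and 2800 at CTRL (a difference of -1.55), and 1570, 2070 and 2570 at SS in Creso against 4770, 4240 and 6770 at CTRL (-1.2). In CS_5AL-10 the treatments overlapped, with a difference of -0.37. The Ath-B match Ta.27649.1.S1_at was among the brightest of the list, 3200 to 8440 on all arrays, and its SS differences of -0.54 to -0.16 did not reach 2-fold in any genotype. A match to another cellulose synthase family member, Ta.12382.1.S1_x_at, was higher at SS by 1.18 in CS_5AL-10, and by 0.97 and 0.9 in CS and Creso, where it fell short of 2-fold.

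Among the enzymes of pectin and xylan, pectinesterases strip methyl groups from pectin, and polygalacturonase inhibiting proteins such as PGIP2 are defence proteins that block fungal pectin breakdown and are not wall enzymes. The pectinesterase match Ta.13152.3.S1_x_at read 876, 605 and 586 at CTRL in Creso, 206, 263 and 167 at MS and 130, 125 and 130 at SS, with differences of -1.55 and -2.13. Its SS differences in CS_5AL-10 and CS were -0.81 and -0.65. Both PGIP2 probe sets, Ta.14588.2.S1_x_at and Ta.14588.2.S1_s_at, were lower at SS in Creso, with differences of -1.78 and -1.85, while those in CS_5AL-10 were 0.94 and 0.64 and those in CS 0.48 and -0.07. The beta-xylosidase match Ta.1764.1.S1_at, for an enzyme that trims xylan, was higher at SS in Creso (3510, 3640 and 3110 at SS against 1510, 1580 and 1570 at CTRL, a difference of 1.26). The laccase match Ta.1063.1.S1_at, of a family that polymerises lignin, met the rule nowhere, its largest difference being 0.93 at MS in CS_5AL-10.

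Arabinogalactan proteins are heavily glycosylated proteins of the wall and cell surface, and fasciclin-like members (FLA) are known for roles in fibre walls. At SS 3 of the 7 matches were lower by the rule in CS_5AL-10, 4 in CS and 1 in Creso (4.48%, 4.22% and 3.46% of all tested probe sets). The AGP9 match Ta.1227.1.A1_at was lower at SS in each genotype. It read 197, 299 and 299 at SS in CS_5AL-10 against 668, 797 and 3550 at CTRL, and 1250, 34 and 844 at SS in CS against 2310, 2690 and 2450 at CTRL. In Creso it read 225, 220 and 134 at SS against 1720, 876 and 1200 at CTRL. The differences were -2.11, -2.67 and -2.47. Single arrays weighed on them, since the difference was -1.38 without CTRL replicate 3 in CS_5AL-10 and -1.21 without SS replicate 2 in CS, whereas without CS SS replicate 1 it was -3.52 and without CS SS replicate 3 it was -3.28. The FLA2 match Ta.18179.1.S1_at had SS differences of -1.52 in CS_5AL-10, -1.6 in CS and -0.97 in Creso, the one in CS being -0.96 without CS SS replicate 2. The FLA7 match Ta.13170.1.S1_at had SS differences of -0.56, -1.6 and -0.99 in CS_5AL-10, CS and Creso. In Creso the SS arrays of the FLA2 match, the FLA7 match and the AGP19 match Ta.23066.2.S1_s_at lay below the CTRL arrays. Each of these differences fell short of 2-fold, so the low count in Creso depends on that limit.

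A pair of matches peaked at MS in Creso. The AGP19 match Ta.21373.1.S1_x_at read 3500, 2660 and 5650 at CTRL, 19800, 26000 and 18900 at MS and 4530, 4140 and 5260 at SS there. The AGP18 match Ta.13161.2.A1_s_at read 7150, 6160 and 11000 at CTRL, 17400, 20900 and 17600 at MS and 5640, 4260 and 6320 at SS. The MS arrays lay above all CTRL and SS arrays in both, with MS differences of 2.58 and 1.31. Creso MS replicate 1, the array with the high endosperm signal, gave 19800 and 17400, close to the other MS replicates. In the bread wheats the MS differences of the pair were -0.59 to 0.95. There Ta.21373.1.S1_x_at read 538, 365 and 1540 at SS in CS_5AL-10 against 277, 150 and 393 at CTRL (1.42, apart only after centring, and 0.81 without SS replicate 3), and 203, 306 and 250 at SS in CS against 623, 1040 and 544 at CTRL (-1.4). It was the only one of the 47 to meet the rule in opposite directions in 2 genotypes at SS. The other AGP19 matches, Ta.23066.1.S1_s_at and Ta.23066.2.S1_s_at, had SS differences of -0.64 and -1.19 in CS_5AL-10, 1.52 and 0.87 in CS, and -0.32 and -0.91 in Creso, so that probe sets matched to 1 Arabidopsis gene did not follow each other.

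Leucine-rich repeat extensins are chimeric proteins that sit in the wall and are known, in Arabidopsis, for shaping root hairs and pollen tubes. The 8 matches spread widely. Ta.22711.1.S1_at was lower at SS in each genotype. It read 177, 139 and 239 at CTRL, 94.9, 127 and 119 at MS and 11.7, 40.2 and 57.5 at SS in CS_5AL-10, and 204, 277 and 187 at CTRL, 122, 57.1 and 161 at MS and 58.3, 45.1 and 6.76 at SS in CS. In Creso it read 10800, 11500 and 16200 at CTRL, 6490, 9540 and 7370 at MS and 1490, 1600 and 2760 at SS. With arrays centred, the SS arrays lay below all CTRL and MS arrays within each genotype, with SS differences of -1.94, -2.28 and -2.61. The bread wheat SS arrays lay at 4.45 to 6.22 (log2), under the array median of 6.57, so the size of the decrease there rests on low values.

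Ta.3145.1.S1_at went the other way. It read 52.1, 150 and 164 at CTRL, 237, 162 and 154 at MS and 344, 283 and 525 at SS in CS_5AL-10, while in CS it stayed between 103 and 234. In Creso it read 121, 223 and 308 at CTRL, 813, 833 and 463 at MS and 2020, 2450 and 1470 at SS, which was the largest upward drought difference of the list (3.28, or 9.73-fold). Ta.13938.1.S1_at and Ta.22572.1.S1_at were also higher at SS in Creso (2.58 and 2.21), with 0.29 and -0.41 in CS_5AL-10 and 0.15 and 0.09 in CS. In the bread wheats Ta.13938.1.S1_at lay under the array median on every array. Ta.2126.1.S1_at and Ta.10520.2.S1_x_at were lower at SS in Creso (-1.74 and -1.56), already so at MS (-1.21 and -1.67), with -0.18 to 0.24 in the bread wheats. Ta.14168.1.S1_at, the brightest probe set of the list (10400 to 56900), was lower at SS in CS (-1.27), with -0.67 and -0.73 in CS_5AL-10 and Creso. Ta.11542.1.S1_at met the rule in none.

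**Figure D3:**
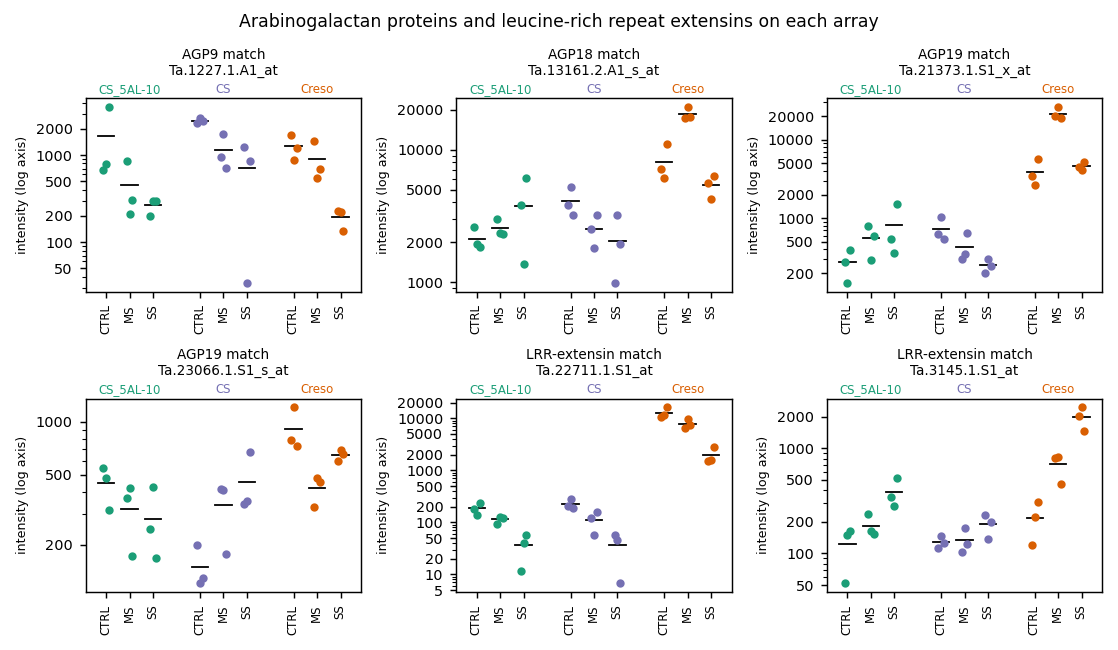
Intensity on each array (points, logarithmic vertical axis) and the mean of each group (bars) for 4 arabinogalactan protein and 2 leucine-rich repeat extensin matches, with CS_5AL-10, CS and Creso side by side under CTRL, MS and SS. AGP18 and the AGP19 match Ta.21373.1.S1_x_at peak at MS in Creso, and Ta.22711.1.S1_at is lower at SS in each genotype at levels far lower in the bread wheats than in Creso.

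The other 7 probe sets picked up by the word extensin were a mixture. A proline-rich extensin-like match, Ta.27834.1.S1_s_at, read 512, 737 and 394 at CTRL, 633, 516 and 164 at MS and 29.3, 50.6 and 58.1 at SS in Creso, a difference of -3.04 at SS, while in the bread wheats it read 41.6 to 173 with no decrease by the rule. In CS it did not pass the filter, at 5.77 to 6.78 (log2) against an array median of 6.57, so a decrease there could hardly show. The proline-rich family match Ta.19941.1.S1_at and the match Ta.18487.1.S1_x_at, to a family that shares a domain with the pollen allergen Ole e 1, were lower at SS in Creso alone by the rule (-1.5 and -1.4). A hydroxyproline-rich glycoprotein match, Ta.16402.1.S1_at, was higher at SS by 1.25, 1.47 and 1.49 in CS_5AL-10, CS and Creso. Ta.1981.3.S1_at, 1 of the 3 matches to a carbonic anhydrase family protein, was higher at SS by 1.49, 1.74 and 1.65. The other 2, Ta.14923.1.S1_at and Ta.1379.2.S1_at, differed by -0.66 to 0.62 at SS, and the last was lower at MS in CS_5AL-10 (-1.08). The starch synthase I match, which is not a wall gene, had SS differences of 1.08, 0.82 and 1.65, the one in CS being under 2-fold.

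Beta-tubulin forms the microtubules that guide cellulose synthesis. The 4 matches to TUB6 come from 3 clusters and had negative SS differences in every genotype. Ta.214.1.S1_at read 3270, 1620 and 4290 at SS in CS_5AL-10 against 5560, 5150 and 4960 at CTRL, and 1690, 3730 and 3130 at SS in CS against 6150, 7320 and 5590 at CTRL. In Creso it read 1980, 1250 and 2220 at SS against 7120, 6320 and 7280 at CTRL. The SS arrays lay below the CTRL arrays in each genotype, with differences of -0.8, -1.17 and -1.82. Ta.28022.2.A1_at met the rule in every genotype (-1.21, -1.74 and -1.62). The range over the 4 was -1.21 to -0.7 in CS_5AL-10, -1.74 to -1 in CS and -1.82 to -1.38 in Creso. At MS none of the 4 met the rule in any genotype, with differences of -0.6 to 0.79.

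Of the actin and kinesin related probe sets, the pair matching ADF3, an actin-depolymerizing factor that severs actin filaments, was higher under drought. Ta.18239.1.S1_at read 186, 225 and 247 at CTRL, 615, 554 and 674 at MS and 917, 750 and 580 at SS in CS_5AL-10. In CS it read 347, 404 and 373 at CTRL, 576, 1210 and 525 at MS and 2130, 666 and 866 at SS, and in Creso 238, 245 and 269 at CTRL, 523, 702 and 375 at MS and 1400, 1320 and 1040 at SS. The CTRL arrays were below every stressed array within each genotype. Those of the other ADF3 match, Ta.18239.2.S1_a_at, overlapped at MS in Creso. The SS differences of the pair were 1.76 and 1.95 in CS_5AL-10, 1.53 and 1.39 in CS, and 2.37 and 1.29 in Creso. The kinesin light chain-related match Ta.11414.1.S1_at met the rule in no comparison with CTRL (-0.64 to 0.38).

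The levels themselves differed between the genotypes. The drought calls behind the list compared treatments within a genotype, not genotypes, but the choice still bore on the levels, as set out below. Averaged over the treatments, 19 of the 47 were lower and 2 higher in CS_5AL-10 relative to Creso, and 21 were lower and 0 higher in CS relative to Creso (limma over all arrays, called at an adjusted p under 0.05 and at least 2-fold). Of all tested probe sets, 15.9% were lower and 15.1% higher in CS_5AL-10, and 13.1% were lower and 14.9% higher in CS. The median differences of the 47 were -0.88 and -0.74, against -0.26 and -0.28 for all tested probe sets. The rest of the study's drought table, 1369 tested probe sets, leaned the same way by less, with 32.4% lower and 17.3% higher in CS_5AL-10 and 28% lower and 15.7% higher in CS. A probe set listed for drought in Creso had to be expressed there, so the lean towards Creso is not independent of the choice. When the count was kept to the 45 that passed the filter in both genotypes compared, 17 were lower and 2 higher in CS_5AL-10 and 19 were lower and 0 higher in CS, beside 15.6% and 12.8% lower of all that passed in both. A further comparison, chosen after seeing the data, used the 10 MS and SS arrays with an endosperm mean under 8, without CTRL in any genotype because no CTRL array of CS or CS_5AL-10 was under 8. These were 1 MS and 2 SS arrays of CS_5AL-10, 1 MS and 1 SS array of CS, and 2 MS and 3 SS arrays of Creso. With groups of 1 array, only the size of the differences is given. The median difference of the 47 from Creso was -0.83 in CS_5AL-10 and -0.97 in CS. On the array, less transcript and a poorer fit of the probes to a genotype's sequence cannot be told apart.

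CS_5AL-10 and CS differed little. Only a TCH4 match (Ta.14995.1.S1_x_at) was higher in CS_5AL-10, by 1.02 ± 0.24 (SE, adjusted p = 0.00458 in limma), and only the pectinesterase match (Ta.13152.3.S1_x_at) was lower, by 1.2 on the log2 scale ± 0.18 (adjusted p = 5.3e-05). This compares with 1.28% and 2.03% of all tested probe sets. The TCH4 match read 597 to 2590 in CS_5AL-10 and 298 to 1200 in CS, and leaving out any of 7 single arrays took it under 2-fold (0.88 to 0.99). The number called was 1 without CS_5AL-10 CTRL replicate 2 and 1 without CS CTRL replicate 3. On the few arrays with a low endosperm mean the TCH4 match differed by 1.11 and the pectinesterase match by -1.19.

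**Figure D4:**
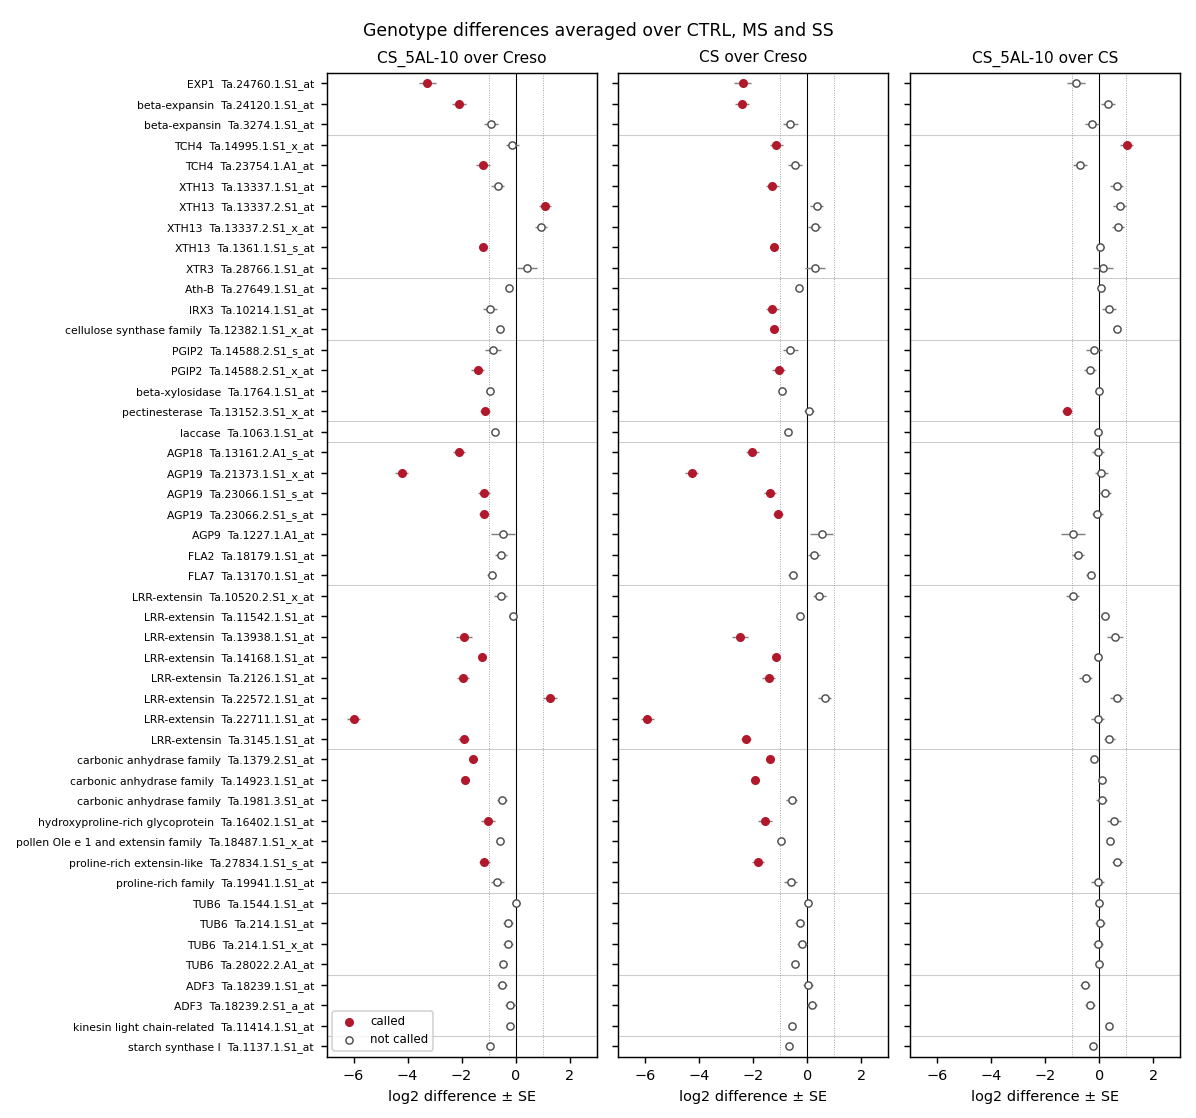
Genotype differences averaged over CTRL, MS and SS, as log2 differences with their standard errors (bars) on the horizontal axis, for the 48 probe sets in rows grouped by role. Red points were called at an adjusted p under 0.05 and at least 2-fold, the XTR3 match was not tested, and dotted lines mark 2-fold. The called points lie left of 0 in the comparisons with Creso except for 2 in CS_5AL-10, where the tubulins lie between -0.48 and 0.03.

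By role, the counts below cover the probe sets that passed the filter in both genotypes compared, and no difference between roles was tested. Of the leucine-rich repeat extensins 4 of 7 were lower in each bread wheat than in Creso, as were 4 of 7 arabinogalactan proteins and 2 of 3 expansins. Of the other extensin domain probe sets 4 of 7 were lower in CS_5AL-10 and 3 of 6 in CS. None of the 4 tubulins and none of the 3 actin and kinesin related probe sets was called, the TUB6 matches differing by -0.48 to 0.01 in CS_5AL-10 and by -0.47 to 0.03 in CS. By treatment the TUB6 matches were within 2-fold of Creso except Ta.28022.2.A1_at at MS, with -1.36 in CS_5AL-10 and -1.35 in CS. At SS 1 of the 4 met the descriptive drought rule downwards in CS_5AL-10, 3 in CS and 4 in Creso (4.48%, 4.22% and 3.46% of all tested probe sets). EXP1 and the beta-expansin match Ta.24120.1.S1_at were called between each bread wheat and Creso and met the descriptive drought rule in Creso alone.

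The largest genotype difference was that of the extensin match Ta.22711.1.S1_at, whose values are given above. It was lower by 6 ± 0.23 on the log2 scale in CS_5AL-10 (SE, adjusted p = 6.7e-17) and by 5.93 ± 0.23 in CS (adjusted p = 1e-16), about 64-fold and 60.9-fold, and no bread wheat array came near a Creso array. The size of these folds is uncertain, since the bread wheat SS arrays lay under the array median. The AGP19 match Ta.21373.1.S1_x_at, with 150 to 1540 on the arrays of CS_5AL-10, 203 to 1040 on those of CS and 2660 to 26000 on those of Creso, differed by -4.22 ± 0.25 and -4.29 ± 0.25 (adjusted p = 2.6e-13 and 2.3e-13). EXP1 differed by -3.27 ± 0.32 and -2.4 ± 0.32 (2.2e-09 and 4.4e-07), and the beta-expansin match Ta.24120.1.S1_at by -2.1 ± 0.25 and -2.42 ± 0.25 (5.4e-08 and 6.4e-09). The AGP18 match was lower by 2.1 ± 0.23 and 2.04 ± 0.23 on the log2 scale (adjusted p = 2.4e-08 and 4.6e-08). The exceptions, higher in CS_5AL-10 than in Creso, were an XTH13 match (Ta.13337.2.S1_at, 1.09 ± 0.24, adjusted p = 0.00041) and the extensin match Ta.22572.1.S1_at (1.27 ± 0.25, 8.2e-05). The difference of Ta.22572.1.S1_at was only 0.54, under 2-fold, on the arrays with a low endosperm mean.

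In each treatment the gap could be set beside the drought difference. Of the 13 probe sets that were lower at SS in Creso and in neither bread wheat by the rule, the median difference between CS_5AL-10 and Creso was -1.85 at CTRL, -1.11 at MS and -0.35 at SS. Between CS and Creso it was -1.41 at CTRL, -0.6 at MS and -0.09 at SS. At CTRL 12 of the 13 were at least 2-fold lower in CS_5AL-10 than in Creso and 10 in CS, and at SS 2 and 0 were. These 13 were picked by their difference between SS and CTRL in Creso, and both levels are part of the gaps. The gap at CTRL and the narrowing to SS are therefore partly set by the choice, and are a description that carries no test. The shares of all tested probe sets were not computed. A TUB6 match among them (Ta.1544.1.S1_at) had a difference of -1 in CS that fell just short of 2-fold. Also among them, Ta.27834.1.S1_s_at in CS and Ta.23754.1.A1_at in CS_5AL-10 did not pass the filter, so a decrease there could hardly show. The mean level over the 9 groups was highest in a Creso group for 40 of the 48, with Creso CTRL the highest for 16, Creso MS for 10 and Creso SS for 14. This count was not made over all tested probe sets. Their levels also leaned towards Creso, with median differences of -0.26 for CS_5AL-10 and -0.28 for CS, and so did the choice of the list.

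**Figure D5:**
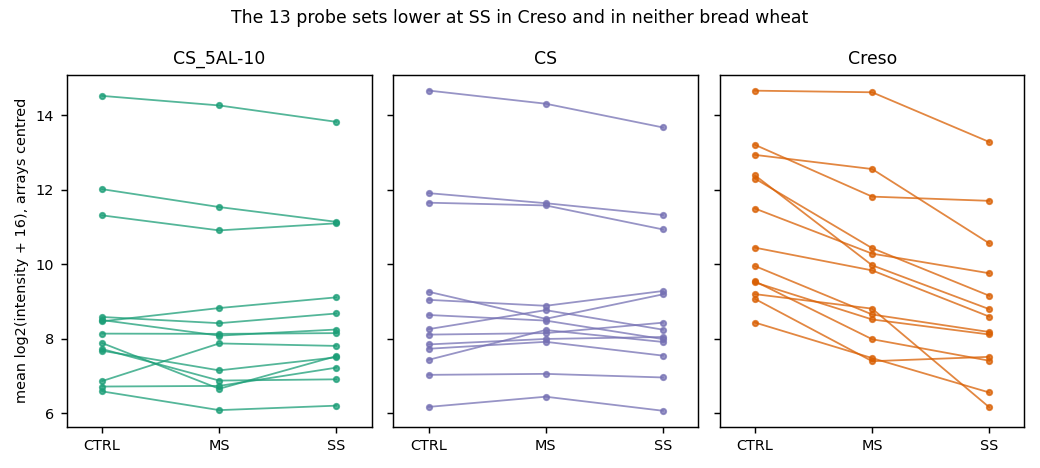
Mean log2(intensity + 16) of the 3 replicates, with arrays centred, under CTRL, MS and SS for the 13 probe sets that met the descriptive rule downwards at SS in Creso alone, 1 line per probe set, in CS_5AL-10, CS and Creso. The lines of Creso descend to SS towards the levels of the bread wheats, where the differences from CTRL run between -1.23 and 1.01 in CS_5AL-10 and between -1 and 0.8 in CS.

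Further probe sets of the pathway were those that the study's table, as far as it was used here, does not hold. They were thus chosen for the absence of a drought call on these arrays in the rows used. A low count of drought calls among them is partly set by that choice and is not an independent view. The later rows of that table were not checked. By the platform's gene symbols 11 further probe sets were found, 7 for tubulins, 2 for profilin, which binds actin monomers, 1 for a xyloglucan endotransglucosylase (XTH) and 1 for caffeic acid O-methyltransferase, an enzyme of lignin synthesis. All 11 were tested. With limma, 1 of 11 was called at MS over CTRL in CS_5AL-10 and 0 at SS, while in CS 0 were called at MS and 2 at SS and in Creso 0 at either level. Where 0 were called, 3 had an unadjusted p under 0.05 at SS in CS_5AL-10, 2 at MS in CS, and 2 at MS and 3 at SS in Creso, and the methods' t-test (Welch) after adjustment called none. Without CS_5AL-10 SS replicate 3, 1 was called at SS there. Of all tested probe sets 2.28% and 5.69% were called in CS_5AL-10, 2.32% and 5.87% in CS and 1.28% and 7.32% in Creso. The medians at SS were -0.03, -0.7 and -0.24, against 0.06, 0.06 and 0.13 for all tested probe sets.

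Both calls in CS were for the tubulin gene LOC543261. Ta.214.2.A1_x_at read 1750, 4610 and 3970 at SS in CS against 7460, 9120 and 6960 at CTRL and fell by 1.24 ± 0.33 on the log2 scale (adjusted p = 0.0153), and Ta.214.2.A1_at fell by 1.18 ± 0.36 (adjusted p = 0.0322). Both calls were lost without CS SS replicate 1 (-0.8 and -0.75) and without CS CTRL replicate 2 (-1.17 and -1.11), and that of Ta.214.2.A1_at also without CS CTRL replicate 1 (-1.16) or replicate 3 (-1.26), where the adjusted p was 0.0693 and 0.0627. The same platform gene is given for the TUB6 matches Ta.214.1.S1_at and Ta.214.1.S1_x_at described above, yet their levels by genotype were unlike. Ta.214.2.A1_at read 2100 to 5720 in CS_5AL-10, 1680 to 8170 in CS and 45.6 to 188 in Creso, and was higher by 5.33 ± 0.21 and 5.47 ± 0.21 in the bread wheats (adjusted p = 5.4e-17 and 4e-17). Ta.214.1.S1_at differed by -0.28 and -0.29.

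The call in CS_5AL-10 was XTH (Ta.30703.1.S1_at), which read 172, 10.4 and 22 at MS against 139, 151 and 473 at CTRL and fell by 2.06 ± 0.6 (adjusted p = 0.0485), with values that overlap. It was lost without any 1 of these arrays except MS replicate 1, the adjusted p reaching 0.248. XTH was lower in the bread wheats than in Creso by 3.36 ± 0.35 and 2.18 ± 0.35 on the log2 scale (adjusted p = 6.5e-09 and 6.5e-06), and in CS_5AL-10 than in CS by 1.18 ± 0.35 (adjusted p = 0.0222), a call lost in 5 of 18 fits that left out 1 array. A TUBA probe set, Ta.723.1.S1_at for alpha-tubulin, read 371 to 1210 in CS_5AL-10, 117 to 1320 in CS and 4.18 to 36.4 in Creso, and was higher in both bread wheats (adjusted p = 1.3e-10 and 3.9e-10). In Creso it lay under the array median on every array, so the size is a bound set by taking the array median for Creso, at least 6.23-fold in CS_5AL-10 and at least 5.42-fold in CS, whereas the other TUBA probe set, Ta.812.1.S1_x_at, differed by -0.33 and -0.2. In all, 3 of the 11 were higher and 1 lower in each bread wheat than in Creso.

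Among the remaining tubulins Ta.28022.1.S1_x_at, in the cluster of the TUB6 match Ta.28022.2.A1_at, differed by -0.03, -0.7 and -0.01 at SS in CS_5AL-10, CS and Creso (adjusted p = 0.938, 0.00917 and 0.972). Ta.212.1.S1_at read 39900, 26900 and 35600 at SS in CS_5AL-10 against 38300, 27800 and 30300 at CTRL, and 20700, 18200 and 20800 at SS in Creso against 33700, 40600 and 41500 at CTRL. In CS it read 21800, 42200 and 30300 at SS against 41000, 52700 and 44800 at CTRL. Its SS difference in Creso was -0.82 ± 0.18 (adjusted p = 0.00334, under 2-fold), and its SS response differed between CS_5AL-10 and Creso by 0.98 ± 0.26 (adjusted p = 0.0325). The profilin probe set Ta.5057.1.S1_x_at had a difference between these SS responses of 0.67 ± 0.19 (adjusted p = 0.0486). That of the other profilin probe set, Ta.5057.3.A1_at, did not pass the same test. Its mean intensity was 28900 at SS against 25200 at CTRL in CS_5AL-10, and 29100 against 37800 in Creso.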

How the data were processed

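Glume RNA was measured on 27 Affymetrix Wheat Genome Arrays. The authors deposited linear intensity values made by MAS5 (version not given in the sources used here). Each value was taken to log2(intensity + 16), and arrays, whose medians ran between 59.1 and 99.07, were centred on their common median. The 111 control probe sets were dropped. Group means were fitted with limma 3.58.1 in R 4.3.3, with a variance trend and Benjamini-Hochberg adjustment over the 34089 probe sets tested. Scripts were tested on simulated data with known changes. With 3 arrays per group, their number limits the precision. Control arrays are shared between the MS and SS comparisons of a genotype. The probe sets, lists and tests were chosen with earlier results of these data known. Any of the 48 could be named, and the arrays are given one by one for those on which a role's pattern rests. Further genes were to be found by title or symbol, but the platform table used here gives symbols only, so symbols and their RefSeq synonyms were searched. Of 1273 probe sets with a platform symbol, 1272 matched RefSeq. Samples were grouped by title. Alternatives were other offsets, scalings, filters, folds, sample sets and tests, leaving out each array, and, added after seeing the data, the arrays with a low endosperm mean.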

Additional observations from a re-analysis of the deposited data

Results flagged for a closer look

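The AGP19 match Ta.21373.1.S1_x_at stood out because its SS responses pointed in opposite directions in 2 genotypes, 1.42 in CS_5AL-10 and -1.4 in CS, with SS arrays that did not overlap the CTRL arrays in either once arrays were centred. The difference between these responses was not tested, since the probe set was chosen for its drought response. Without CS_5AL-10 SS replicate 3 the value there was 0.81.

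The beta-tubulin probe set Ta.212.1.S1_at was picked out by a test of the difference itself, its SS response being 0.98 higher in CS_5AL-10 than in Creso (limma, adjusted p = 0.0325). Over 12 fits that each left out 1 array the value was 0.88 to 1.15 and passed in 4, and over 8 other settings it was 0.43 to 1.04 and passed in 5.

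The profilin probe set Ta.5057.1.S1_x_at was picked out in the same way, with an SS response 0.67 higher in CS_5AL-10 than in Creso (adjusted p = 0.0486). Its value was 0.55 to 0.75 on leaving out single arrays, passing in 2 of 12 fits, and 0.31 to 0.73 in the other settings, passing in 4 of 8.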

How the results depend on the processing

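The main counts of probe sets called between genotypes, 21 for CS_5AL-10 over Creso, 21 for CS over Creso and 2 for CS_5AL-10 over CS, were 38, 33 and 10 without the fold threshold, and the last was 0 with an offset of 64. Over fits without 1 array they were 20 to 23, 20 to 22 and 1 to 3. Of the drought counts by the descriptive rule, an offset of 64 gave 5 for CS_5AL-10 MS, 1 for CS_5AL-10 SS over MS and 1 for CS SS over MS. A 3-fold limit gave 2 for CS_5AL-10 MS, 7 for CS_5AL-10 SS, 0 for CS_5AL-10 SS over MS, 2 for CS MS, 9 for CS SS, 0 for CS SS over MS, 6 for Creso MS and 15 for Creso SS over MS. Without 1 array the counts were 7 to 13, 16 to 19 and 2 to 5 in CS_5AL-10 (MS, SS, SS over MS), 4 to 10, 15 to 22 and 3 to 9 in CS, and 12 to 16, 33 to 35 and 26 to 30 in Creso.

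Of the 11 further probe sets, the 1 called in CS_5AL-10 at MS became 0 with an offset of 1, without centring, without the filter, with that genotype's arrays alone and in the methods' t-test. The 2 called in CS at SS became 1 with an offset of 1, 5 without the fold threshold and 0 in the t-test, and the 0 in Creso at SS became 1 without the fold threshold. Without 1 array the counts ran 0 to 1 at MS and 0 to 1 at SS in CS_5AL-10, 0 at MS and 0 to 3 at SS in CS, and 0 in Creso. The cause of these changes was not tested. Of 570 single values recomputed under the alternatives 514 kept direction and call, 56 lost the call and 0 reversed. Same-numbered arrays did not deviate together (5 of 36 pairs correlated over 0.1), so numbers were not taken as pairs. A fit with the replicate number as a block called 21 of the 47 for CS_5AL-10 over Creso, 21 for CS over Creso and 2 for CS_5AL-10 over CS.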
